A study of Homo sapiens with 12 samples.

Results

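The genes described here encode the subunits of RNA polymerase I, II and III and 5 factors that work with Pol I or Pol III. They were chosen by name: every gene symbol in the deposited table that begins with POLR1, POLR2 or POLR3, together with UBTF, RRN3, BRF1, BRF2 and MAF1. This gave 37 of the 15798 genes listed. They were measured by ribosome profiling (Ribo-seq) in HCT116 cells, an established human colorectal cancer line, treated for 24 h either with 100 nM trametinib, an inhibitor of the kinases MEK1 and MEK2 upstream of ERK, or with DMSO, the solvent. All dishes received cycloheximide before lysis, which holds ribosomes on the mRNA. The 12 libraries form 4 groups of 3: DMSO input, trametinib input, DMSO footprints and trametinib footprints, where input is randomly fragmented mRNA of the lysate and footprints are the mRNA stretches that ribosomes shielded from RNase I. The samples came from a single line at a single dose and time point.

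RNA polymerase I transcribes the large ribosomal RNA precursor in the nucleolus, Pol III makes tRNAs, the smallest ribosomal RNA and other short RNAs, and Pol II transcribes mRNAs. Each enzyme has a catalytic core of 2 large subunits, a set of small subunits common to all 3 enzymes, and peripheral subunits of its own, such as a stalk that binds the nascent RNA. Pol I and Pol III supply the RNA parts of the translation machinery, and both are known to be regulated by growth signalling through ERK and mTOR.

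The 37 genes fell into 7 classes. 6 encode subunits of Pol I only, 2 encode subunits shared by Pol I and III, 5 are common to all 3 enzymes, 9 belong to Pol II only and 10 to Pol III only. The Pol II class counts POLR2M, a protein that associates with the enzyme. UBTF and RRN3 are factors of Pol I. BRF1, BRF2 and MAF1 are factors of Pol III. Tests covered the 10663 genes that had 10 or more counts in 3 or more of the input libraries, and 36 of the 37 genes passed. The exception was POLR2J3, a near-identical copy of POLR2J, which had between 0 and 1 counts in every library. POLR2J2 and POLR2J4 are not in the table and were not analysed here.

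The depth, as reads counted within coding sequences, ranged from 2276693 to 2845568 per input library and from 10127477 to 19181588 per footprint library, so that input was the less precise assay. The median standard error (SE) of a log2 change for the 36 genes was 0.21 in input and 0.14 in footprints. ERK output was low in every trametinib library: DUSP6, which encodes an ERK phosphatase, had between 515 and 748 counts in DMSO input and between 0 and 5 in trametinib input. Epithelial markers (EPCAM, CDH1, KRT8, KRT18 and CDX2) were present in all groups, whereas VIL1 had at most 2 counts per library. Of 9 markers of fibroblasts, endothelium and leukocytes, 6 had at most 4 counts in any library. The summed level of these 9 markers was between 11.8 and 14.9 CPM (counts scaled to library size) in DMSO input and between 29.5 and 35.0 in trametinib input. In footprints it was between 6.07 and 8.39 in DMSO and between 22.4 and 34.9 in trametinib, with COL3A1 and VWF higher in each trametinib library. Their part in the results below was not tested. The libraries of DMSO replicate 1 stood apart from replicates 2 and 3 in both assays, and calls of named genes that changed without them are given. These are cultures in bulk, in which fewer cells of a kind and less RNA per cell cannot be told apart.

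The start regions of 26 of the genes had an entry in a RefSeq table of promoters (build GRCh38.p14). The sequences shown are the 100 bases before the annotated start of Pol I only and Pol III only subunits that fell in footprints and of POLR3GL and POLR2A, which were not called, restricted to those in which no annotated exon overlaps. They set genes of Pol I and Pol III that fell together beside a paralog and a Pol II subunit that were not called. Capitals mark CACGTG, the E-box bound by MYC and related factors, or CCGGAA, the core bound by ETS factors, searched on both strands. No printed match overlaps another.
POLR1G (Pol I, chr19:45406544-45406643, plus strand): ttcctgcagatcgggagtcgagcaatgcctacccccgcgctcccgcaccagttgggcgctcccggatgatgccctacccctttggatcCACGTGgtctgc
POLR1F (Pol I, chr7:19709038-19709137, minus strand): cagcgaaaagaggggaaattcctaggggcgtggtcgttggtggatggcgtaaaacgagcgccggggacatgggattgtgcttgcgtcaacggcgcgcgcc
POLR3K (Pol III, chr16:53609-53708, minus strand): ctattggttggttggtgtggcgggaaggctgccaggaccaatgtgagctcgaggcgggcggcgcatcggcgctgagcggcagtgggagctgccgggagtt
POLR3B (Pol III, chr12:106357648-106357747, plus strand): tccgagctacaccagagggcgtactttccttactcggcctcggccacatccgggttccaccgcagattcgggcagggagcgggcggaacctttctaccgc
POLR3GL (Pol III, chr1:145964590-145964689, plus strand): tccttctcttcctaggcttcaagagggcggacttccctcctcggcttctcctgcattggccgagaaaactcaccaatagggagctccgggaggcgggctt
POLR2A (Pol II, chr17:7484266-7484365, plus strand): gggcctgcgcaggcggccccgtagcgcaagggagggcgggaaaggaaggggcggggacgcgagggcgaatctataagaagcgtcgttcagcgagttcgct

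Of the 6 stretches, the one of POLR1G holds an E-box, close to the start site. Over the 250 bases before the start, CACGTG was present in 3 of the 26 entries (11.5%), those of POLR1G, POLR3A and POLR3C, against 6.34% of all 35116 promoters. CCGGAA was present in 11 of 26 (42.3%), against 14.5% of all promoters. Counted by gene, CACGTG was present for 7.73% and CCGGAA for 17.2% of 27305 genes. That background includes genes that were not tested here, and the shares among tested genes only were not computed. CCGGAA was found in 5 of the 15 genes that were lower in trametinib footprints and in 6 of the 11 that were not. These are matches of letters in a fixed window and no binding was measured.

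Most Pol I only and Pol III only subunits were lower in footprints after trametinib and many were lower in input. Of 8 Pol II only subunits, 3 were lower and 1 was higher in footprints, and the largest, POLR2A and POLR2B, were called in neither assay. The largest of Pol III, POLR3A and POLR3B, were lower in footprints and not called in input. Of the 36 genes tested, 14 were lower and 0 were higher after trametinib in input, at a threshold of 0.05 on the adjusted p-value (edgeR quasi-likelihood test, Benjamini-Hochberg adjustment over all genes tested). The background was 16.7% of all genes lower and 15.6% higher. At an unadjusted p under 0.05, 18 of the 36 genes passed in input, beside 42.8% of all genes. DESeq2 called 0 higher and 10 lower, and limma-trend 12 lower. In footprints 22 were lower and 1 was higher, beside 25.6% and 23.8% of all genes. The median log2 change was -0.46 in input and -0.55 in footprints, against -0.001 and -0.013 for all genes. Leaving out trametinib input replicate 1, 2 or 3 reduced the 14 lower calls in input to 8, 7 and 8. The input calls of POLR1B, POLR1E, POLR1G, POLR2G, POLR2I and POLR3E were made under every setting tried, and 17 of the 23 footprint calls likewise.

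**Figure D1:**
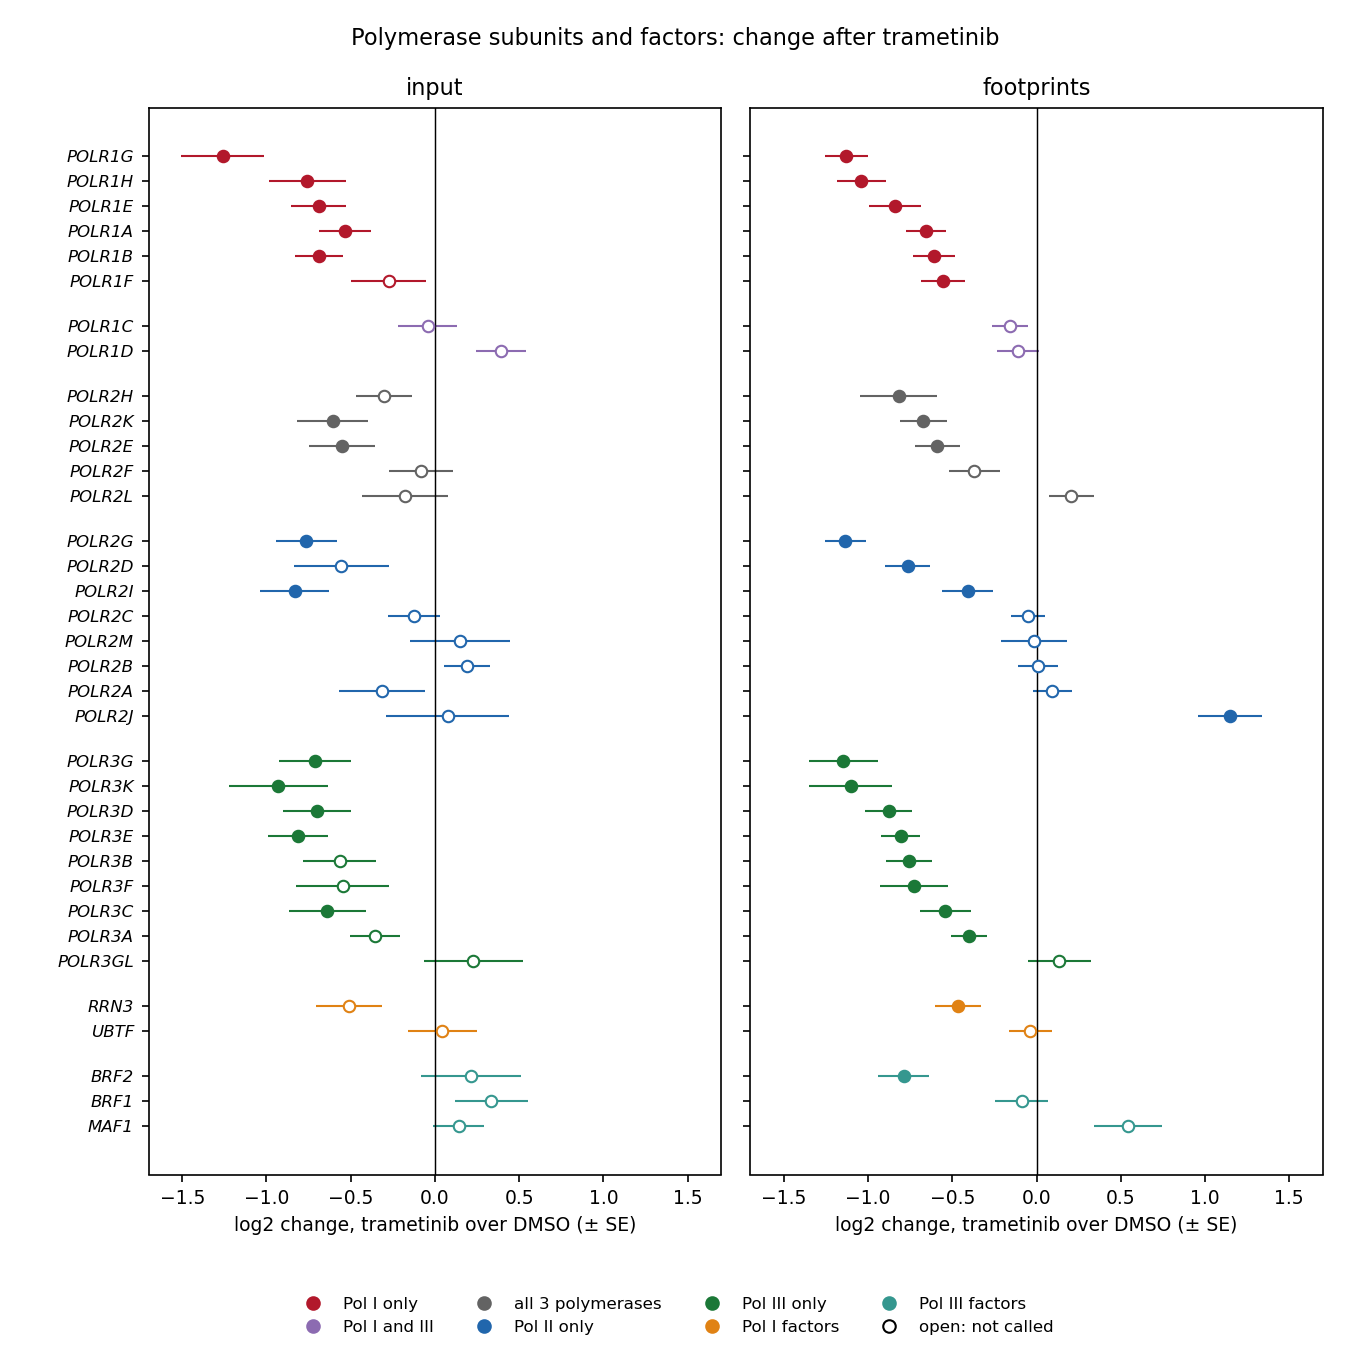
Log2 change of 35 genes, trametinib over DMSO, in input (left) and footprints (right), with the standard error as a bar and n = 3 libraries per group. Genes are coloured by class, filled points passed the adjusted p-value and open points did not. Pol I only and Pol III only subunits lie left of 0 in both panels apart from POLR3GL, and POLR2J is the only filled point to the right of 0.

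The 3 enzymes differed in their counts and medians. In footprints 6 of 6 Pol I only subunits were lower, with a median log2 change of -0.75, and 8 of 10 Pol III only subunits, with a median of -0.74. Of 8 Pol II only subunits, 3 were lower and 1 was higher, and the median was -0.033. These 8 include POLR2M, a protein that associates with Pol II (-0.014), and POLR2J, whose values are uncertain (1.15). The others were POLR2A at 0.094, POLR2B at 0.011, POLR2C at -0.051, POLR2I at -0.41, POLR2D at -0.77 and POLR2G at -1.13. POLR2M and POLR2J both lie above this median, which would be lower without them, and none was taken without them. In input 5 of 6 Pol I only, 5 of 10 Pol III only and 2 of 8 Pol II only subunits were lower, with medians of -0.69, -0.60 and -0.22. The Pol II only median in input also counts POLR2M (0.15) and POLR2J (0.076), and would likewise be lower without them. The others were POLR2I at -0.83, POLR2G at -0.76, POLR2D at -0.555, POLR2A at -0.32, POLR2C at -0.12 and POLR2B at 0.19. Both subunits shared by Pol I and III were left uncalled in both assays, with a median of 0.17 for input and -0.13 for footprints. Of the 5 subunits common to all enzymes, 2 were lower in input and 3 in footprints, with medians of -0.30 and -0.59. The subunits of an enzyme are not replicates, so the difference between the enzymes was described and not tested. Scaling by library totals in place of TMM moved the footprint median of all genes by 0.18 (log2), with 3571 genes higher and 1927 lower in place of 2536 and 2729. On that scale the medians were -0.57 for Pol I only, -0.57 for Pol III only, 0.15 for Pol II only and 0.043 for the subunits shared by Pol I and III, so that the last 2 changed sign, while 18 genes were lower and 3 higher.

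Taken library by library, the separation of Pol I and Pol III was complete and that of Pol II was not. The summed input level of the Pol I only subunits was 496, 479 and 449 CPM (from here on scaled by TMM) in DMSO and 293, 301 and 313 in trametinib, or 63.6% of DMSO. Their summed footprints were 524, 538 and 544 CPM in DMSO and 320, 299 and 335 in trametinib, or 59.4%. For Pol III only subunits, input was 424, 401 and 384 CPM in DMSO and 267, 287 and 273 in trametinib, and footprints were 431, 391 and 455 against 265, 251 and 280. These were 68.4% and 62.2% of DMSO. In both enzymes each trametinib library was below each DMSO library in both assays. For Pol II only subunits, input was 851, 1074 and 906 CPM against 947, 749 and 903, and footprints were 1496, 1498 and 1430 against 1398, 1378 and 1484. The Pol II groups overlapped in both assays, at 91.8% and 96.3% of DMSO, and POLR2A and POLR2B made up most of that sum. All these values are relative to the other mRNAs of a library and do not give the amount of protein made. The authors report lower global protein synthesis in HCT116 cells after trametinib, measured by other assays, which such shares cannot show.

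**Figure D2:**
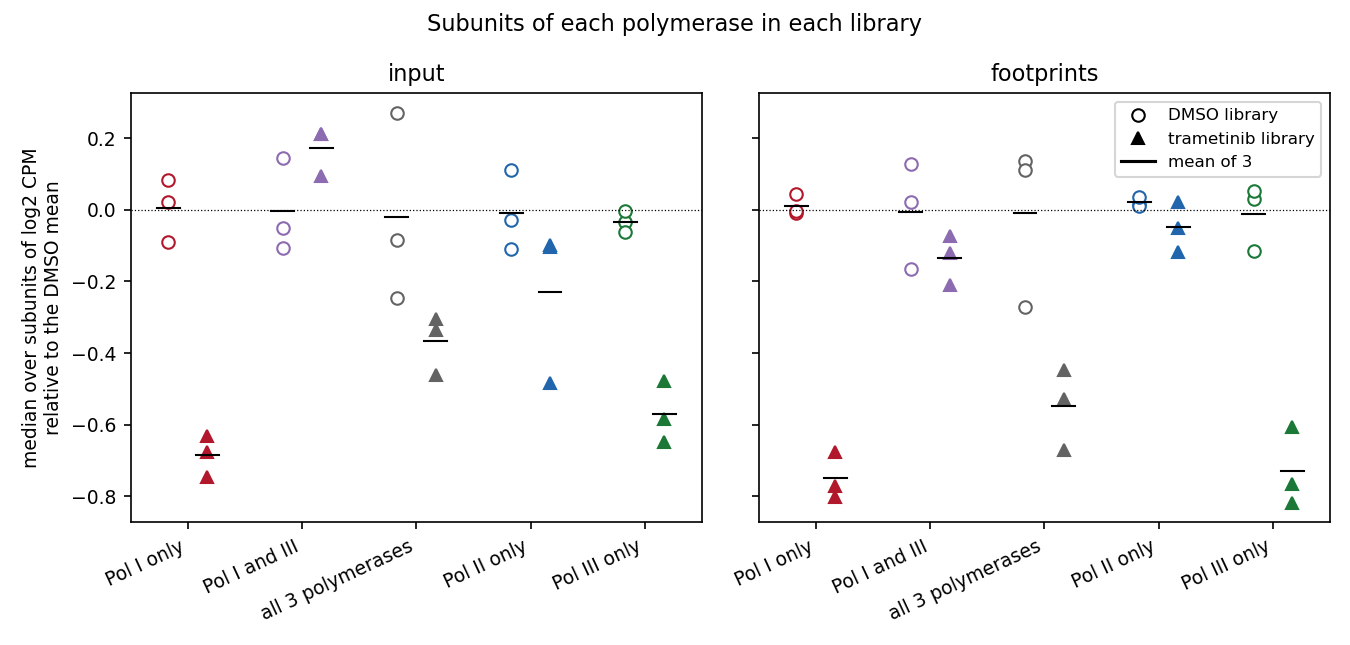
Median over the subunits of each enzyme of the log2 CPM relative to the DMSO mean of the same gene, in each input (left) and footprint (right) library. Open circles are DMSO, filled triangles are trametinib and the line is the mean of 3 libraries. The trametinib libraries lie between -0.63 and -0.75 for Pol I only and between -0.48 and -0.65 for Pol III only in input, clear of DMSO, whereas Pol II only overlaps with DMSO in both panels. The subunits common to all enzymes are also clear of DMSO, at -0.304 or below against -0.245 or above in input. In footprints they lie at -0.448 or below against -0.271 or above, although their summed CPM overlapped in both assays.

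Within Pol I, the catalytic core went down in both assays. POLR1A, the largest subunit, had input of 144, 127 and 120 CPM in DMSO and 81.7, 91.3 and 97.8 in trametinib, and footprints of 181, 159 and 142 against 103, 98.9 and 104. Its groups did not overlap in either assay, and the log2 changes were -0.53 ± 0.16 (SE) in input and -0.66 ± 0.12 in footprints (edgeR adjusted p = 0.0173 and 0.00161, n = 3 libraries per group here and below). POLR1B, the second core subunit, held 175, 173 and 163 CPM in DMSO input and 104, 105 and 109 in trametinib input. Its footprints were 108, 126 and 142 CPM against 83.4, 77.0 and 86.1, and it fell by 0.69 and 0.61 on the log2 scale (adjusted p = 0.00218 and 0.00347).

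POLR1E and POLR1G form a heterodimer found in Pol I only, which takes part in initiation and elongation. POLR1G showed the largest input change of all 36 genes. It had 23.7, 30.4 and 36.2 CPM in DMSO input against 10.1, 12.7 and 14.9 in trametinib, and 40.2, 38.7 and 38.1 footprint CPM against 20.1, 15.8 and 17.6. The groups were separate in both assays, with log2 changes of -1.26 ± 0.25 and -1.13 ± 0.13 (adjusted p = 0.00142 and 0.000123). Its partner POLR1E had 101, 95.7 and 80.7 CPM in DMSO input and 61.5, 53.6 and 56.6 in trametinib, and footprints of 86.6, 115 and 131 CPM against 59.6, 59.1 and 67.0. POLR1E thus changed by -0.69 ± 0.16 and -0.84 ± 0.16 (adjusted p = 0.00536 and 0.00191).

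POLR1H, which helps Pol I to cleave RNA in its active site, had 31.8, 25.7 and 23.1 CPM in DMSO input and 18.6, 13.2 and 15.8 in trametinib. Its footprints were 78.8, 71.0 and 59.1 CPM against 34.8, 29.0 and 37.7, a log2 change of -1.04 ± 0.15 (adjusted p = 0.000408) next to -0.76 ± 0.23 in input (adjusted p = 0.0210). The stalk subunit POLR1F was the exception in input, where 21.5, 26.5 and 26.6 CPM in DMSO overlapped with 17.4, 25.5 and 18.9 in trametinib. In footprints it had 28.7, 28.6 and 32.7 CPM against 20.0, 18.9 and 22.4, and fell by 0.56 (adjusted p = 0.00607). Leaving out 1 library ended the input call of POLR1A (without trametinib replicate 1 or 2, at -0.47 and -0.54) and of POLR1H (without DMSO replicate 1 or trametinib replicate 2 or 3, at -0.62, -0.64 and -0.75).

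**Figure D3:**
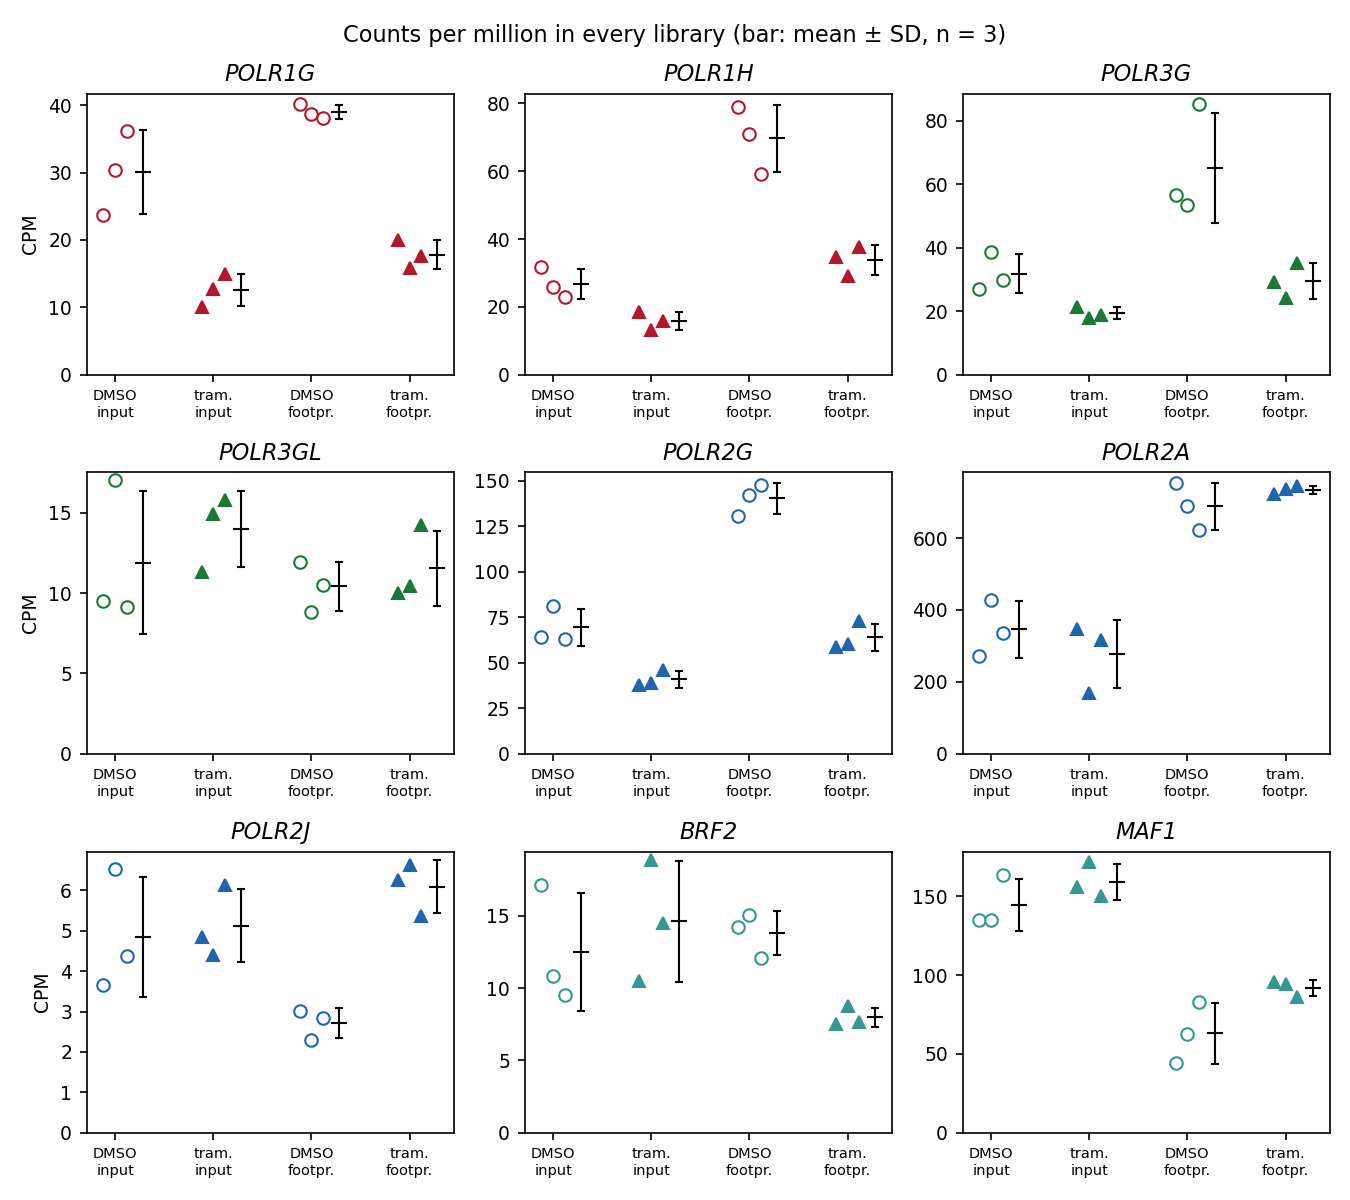
TMM-scaled CPM in each of the 12 libraries for 9 genes, with open circles for DMSO, filled triangles for trametinib, and the mean ± SD of 3 libraries beside each group. Footprints of POLR1G, POLR1H, POLR3G, POLR2G and BRF2 separate downward, those of POLR2J and MAF1 upward, and POLR3GL and POLR2A overlap between treatments.

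In Pol III, both core subunits fell in footprints, and neither was called in input. POLR3A, the largest subunit, had 102, 107 and 108 CPM in DMSO input and 85.3, 83.8 and 78.5 in trametinib, groups that did not overlap at a log2 change of -0.36 ± 0.15 (adjusted p = 0.0818). Its footprints were 100.2, 87.5 and 87.4 CPM against 73.2, 68.4 and 66.9, a change of -0.40 ± 0.11 (adjusted p = 0.0133). POLR3B, the second core subunit, had input of 39.4, 38.1 and 25.4 CPM against 21.0, 24.1 and 24.6 (adjusted p = 0.0604) and footprints of 46.0, 35.4 and 37.1 against 24.1, 21.6 and 24.5. The footprint change of POLR3B was -0.76 ± 0.14 (adjusted p = 0.00178). Its input change passed without DMSO replicate 3 (-0.74, adjusted p = 0.00956) and with the replicate number as a term (-0.55, adjusted p = 0.0425).

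POLR3D and POLR3E form a heterodimer that corresponds to the POLR1E and POLR1G pair and acts in initiation and termination. POLR3D had 47.8, 43.9 and 54.0 CPM in DMSO input and 22.7, 35.6 and 31.6 in trametinib, and footprints of 49.1, 44.8 and 60.1 against 28.7, 25.2 and 30.0. Its log2 changes were -0.70 ± 0.20 and -0.88 ± 0.14 (adjusted p = 0.0167 and 0.000873). POLR3E had 76.7, 59.4 and 65.2 CPM in DMSO input against 41.3, 35.1 and 38.2, and 48.8, 42.6 and 42.9 footprint CPM against 24.9, 26.4 and 25.6. It changed by -0.81 ± 0.18 and -0.81 ± 0.12 (adjusted p = 0.00300 and 0.000439), and neither assay showed any overlap for this pair.

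POLR3C, POLR3F and POLR3G make up a trimer that Pol III needs to start transcription. POLR3C had 81.8, 57.3 and 40.5 CPM in DMSO input against 39.6, 40.4 and 35.5, and 69.0, 48.8 and 48.3 footprint CPM against 37.9, 37.7 and 38.6. DMSO replicate 1 was the highest library in both assays: the input change of -0.64 (adjusted p = 0.0475) became -0.35 (adjusted p = 0.187) without it, and the footprint change of -0.54 became -0.35 with its call kept. Over all settings tried POLR3C lost its input call in 7 and its footprint call in 4. POLR3F had 17.5, 16.7 and 17.9 CPM in DMSO input and 7.28, 15.4 and 13.2 in trametinib (adjusted p = 0.145). Its footprints were 19.5, 27.6 and 32.4 CPM against 15.0, 14.4 and 18.7, a change of -0.73 ± 0.20 (adjusted p = 0.0143) that was no longer called without DMSO replicate 3 (-0.54) or trametinib replicate 1 or 2 (-0.68 and -0.66).

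POLR3G and POLR3GL are paralogs, alternative versions of the same position in that trimer. POLR3G is known from stem cells and tumours and POLR3GL from most tissues. In GRCh38 (GENCODE v44), POLR3G lies on chromosome 5 from 90471748 to 90514557 and POLR3GL on chromosome 1 from 145964690 to 145978848, each on the plus strand. POLR3G had 27.0, 38.8 and 29.8 CPM in DMSO input against 21.4, 18.0 and 18.9 in trametinib, and footprints of 56.8, 53.7 and 85.3 against 29.3, 24.1 and 35.3. Its footprint estimate was the lowest of the 36 genes, although those of POLR1G, POLR2G and POLR3K lay within its standard error, with log2 changes of -0.71 ± 0.22 and -1.15 ± 0.21 (adjusted p = 0.0210 and 0.00191). POLR3GL had 9.49, 17.03 and 9.14 CPM in DMSO input and 11.3, 14.9 and 15.8 in trametinib, and footprints of 11.9, 8.84 and 10.5 against 9.98, 10.5 and 14.2. Its groups overlapped in both assays, at 0.23 ± 0.29 (adjusted p = 0.587) and 0.14 ± 0.19 (adjusted p = 0.575). The ratio of POLR3G to POLR3GL footprints was 4.76, 6.07 and 8.14 in DMSO and 2.94, 2.31 and 2.48 in trametinib. In input the ratio was 2.85, 2.28 and 3.26 against 1.89, 1.21 and 1.19. Both ratios were lower in each trametinib library than in each DMSO library, and POLR3G was the more abundant paralog in all of them. The input call of POLR3G was lost without DMSO replicate 2 (-0.54) or trametinib replicate 2 or 3 (-0.66 and -0.69).

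POLR3K, which serves in termination and RNA cleavage and corresponds to POLR1H, had 9.13, 9.06 and 11.1 CPM in DMSO input against 5.26, 4.83 and 5.26. Its footprints were 19.6, 29.4 and 38.3 CPM against 12.0, 12.2 and 16.6. Its log2 changes were -0.93 ± 0.30 and -1.10 ± 0.25 (adjusted p = 0.0270 and 0.00579). With 11 to 28 raw counts per input library, the input call was lost in DESeq2 (adjusted p = 0.104, the highest of the alternatives, whose lowest was 0.0235) and without DMSO replicate 3 or any trametinib replicate, at -0.83 to -0.95. POLR3D lost its input call without trametinib replicate 1 (-0.53), and POLR3A its footprint call without trametinib replicate 2 or 3 (-0.39 and -0.37) or with library totals (-0.22).

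POLR1H, POLR2I and POLR3K, which correspond to each other in the 3 enzymes, were lower in both assays. POLR2I had 45.3, 43.5 and 65.2 CPM in DMSO input and 26.3, 29.0 and 31.2 in trametinib (log2 -0.83 ± 0.20, adjusted p = 0.00662). Its footprints were 50.0, 47.5 and 40.9 CPM against 39.5, 36.6 and 27.99, a smaller change of -0.41 ± 0.15 whose adjusted p of 0.0497 passed only narrowly. That footprint call was lost with library totals (-0.23) and in 5 of the 6 fits that left out 1 library, all but the one without DMSO replicate 3 (-0.51 to -0.28).

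Of the other Pol II subunits, the core and POLR2C were not called. POLR2A, the largest subunit, had 272, 429 and 337 CPM in DMSO input and 348, 169 and 316 in trametinib, and footprints of 753, 688 and 623 against 723, 735 and 745. The groups overlapped, with log2 changes of -0.32 ± 0.26 and 0.094 ± 0.11 (adjusted p = 0.381 and 0.518), and the 95% interval of the footprint change ran from -0.16 to 0.35. The second core subunit POLR2B changed by 0.19 in input and 0.011 in footprints (interval -0.26 to 0.28), and POLR2C, which seeds assembly, by -0.12 and -0.051 (interval -0.28 to 0.17). None of these 3 was called in either assay.

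The pair that forms the stalk of Pol II fell in footprints. POLR2G had 63.9, 81.2 and 63.2 CPM in DMSO input and 37.6, 39.1 and 46.1 in trametinib, and footprints of 131, 142 and 148 against 58.7, 60.3 and 72.7. It changed by -0.76 ± 0.18 and -1.13 ± 0.12 (adjusted p = 0.00506 and 8.56e-05), the lowest adjusted p in footprints among the 36 genes. Its partner POLR2D had 10.2, 10.5 and 11.9 CPM in DMSO input and 7.28, 5.71 and 9.21 in trametinib (adjusted p = 0.152). In footprints POLR2D had 34.4, 36.9 and 42.0 CPM against 21.5, 20.6 and 24.7, and changed by -0.77 ± 0.13 (adjusted p = 0.00135).

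POLR2J, the partner of POLR2C, was the 1 gene of the 36 called higher in footprints with edgeR, and MAF1 joined it under several alternatives given with its values. It had 3.01, 2.29 and 2.85 footprint CPM in DMSO and 6.26, 6.64 and 5.37 in trametinib, from 22 to 51 and 71 to 128 raw counts. Its log2 change was 1.15 ± 0.19 (adjusted p = 0.00106), and the groups did not overlap. In input it had 3.65, 6.52 and 4.37 CPM against 4.85, 4.39 and 6.14, from 10 to 18 raw counts, with a change of 0.076 ± 0.36 (adjusted p = 0.898). Reads that match several gene symbols were not counted, so POLR2J is measured only where it differs from its copies, and its values are uncertain for that reason. POLR2J lies on chromosome 7 from 102473128 to 102478922 on the minus strand. POLR2M, a protein that associates with Pol II, changed by 0.15 in input and -0.014 in footprints and was not called.

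Among the 5 subunits common to all enzymes, POLR2E and POLR2K were lower in both assays. POLR2E had 73.7, 78.7 and 120 CPM in DMSO input against 57.8, 63.2 and 64.5, and footprints of 120, 158 and 153 against 88.1, 99.4 and 98.4. The input change of -0.55 (adjusted p = 0.0451) was -0.30 without DMSO replicate 3, and this call was also lost in DESeq2 (adjusted p = 0.054, between 0.00864 and 0.153 over the alternatives), in limma-trend and without 4 other single libraries, while the footprint change of -0.59 ± 0.13 (adjusted p = 0.00504) was always called. POLR2K had 26.7, 33.3 and 27.0 CPM in DMSO input against 19.0, 16.7 and 21.5, and footprints of 154, 163 and 178 against 104, 86.2 and 121. It changed by -0.61 ± 0.21 and -0.67 ± 0.14 (adjusted p = 0.0407 and 0.00347), and its input call was lost in DESeq2 (adjusted p = 0.0891, between 0.0282 and 0.162 over the alternatives) and without DMSO replicate 2 or any trametinib replicate, at -0.49 to -0.70.

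POLR2H was called in footprints although its groups overlapped. Its footprints were 102, 180 and 191 CPM in DMSO and 80.6, 84.2 and 103 in trametinib (log2 -0.82 ± 0.23, adjusted p = 0.0172), and the call was lost without DMSO replicate 2 or 3 or trametinib replicate 1 or 2 (-0.64 to -0.78). Of the DMSO footprint libraries, only replicate 1 lay within the trametinib range. Over all fits that left out 1 library the POLR2H footprint change ran from -1.05 to -0.64. Its input of 66.8, 84.8 and 85.8 CPM overlapped with 67.9, 61.9 and 62.7 as well (adjusted p = 0.184). POLR2F and POLR2L were not called, with footprint changes of -0.37 and 0.21. POLR2F footprints were 73.1, 90.3 and 101 CPM in DMSO against 61.7, 64.7 and 78.7, groups that overlapped. POLR2F was called lower with the replicate number as a term in the fit, the replicate block (-0.36, adjusted p = 0.0247), without DMSO replicate 1 (-0.49, adjusted p = 0.00213) and without trametinib replicate 3 (-0.48, adjusted p = 0.0497), with adjusted p up to 0.307 over the alternatives. The subunits shared by Pol I and III, POLR1C and POLR1D, form the pair that seeds assembly in those enzymes, as POLR2C and POLR2J do in Pol II. POLR1C changed by -0.044 in input and -0.16 in footprints (interval -0.40 to 0.090). POLR1D had 98.9, 87.7 and 88.2 CPM in DMSO input and 124, 118 and 119 in trametinib, higher in each trametinib library, at 0.39 ± 0.15 (adjusted p = 0.0572, between 0.0311 and 0.175 over the alternatives). It passed without DMSO replicate 1 and with the replicate block. Its footprint change was -0.11 ± 0.13, with groups that overlapped.

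Of the 2 factors of Pol I, RRN3 fell in footprints. RRN3 brings the enzyme to its promoter, and UBTF binds ribosomal DNA along its length. RRN3 had 115, 111 and 75.1 CPM in DMSO input and 83.3, 65.8 and 61.9 in trametinib (log2 -0.51 ± 0.20, adjusted p = 0.0580), and footprints of 194, 155 and 152 against 119, 106 and 137 (-0.47 ± 0.14, adjusted p = 0.0206). The footprint call was lost without trametinib replicate 1 (-0.46) or 2 (-0.38) and with library totals (-0.29), and in input RRN3 passed without DMSO replicate 3 (-0.68), with no filter on low counts (-0.53) and with the replicate block (-0.50). UBTF had 60.6, 110.2 and 106 CPM in DMSO input and 91.0, 97.9 and 96.5 in trametinib, and footprints of 75.3, 87.6 and 101 against 86.0, 83.2 and 88.1. It overlapped in both assays, at 0.044 ± 0.21 and -0.037 ± 0.13, and its input estimate turned to -0.19 without DMSO replicate 1, the lowest library.

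Of the factors of Pol III, BRF2 fell in footprints and the others were not called. BRF2, the part of TFIIIB used at promoters that lie outside the transcribed gene, had 17.2, 10.9 and 9.54 CPM in DMSO input against 10.5, 18.9 and 14.5 (adjusted p = 0.618). Its footprints were 14.2, 15.1 and 12.1 CPM against 7.54, 8.74 and 7.64, a change of -0.79 ± 0.15 (adjusted p = 0.00246) with no overlap. BRF1, its relative at tRNA genes, had 18.6, 22.5 and 25.4 CPM in DMSO input against 25.5, 33.4 and 25.0, and footprints of 17.4, 20.3 and 23.2 against 17.7, 21.9 and 17.7. It was not called, at 0.34 ± 0.22 in input and -0.088 ± 0.16 in footprints.

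MAF1, the repressor of Pol III, had 135.1, 135.2 and 164 CPM in DMSO input and 156, 172 and 150.0 in trametinib (adjusted p = 0.507). Its footprints were 44, 62.8 and 82.7 CPM in DMSO and 95.9, 94.2 and 86.2 in trametinib, higher in each trametinib library. The change of 0.54 ± 0.20 had an adjusted p of 0.0512, between 0.00464 and 0.131 over the alternatives, and it passed with DESeq2, limma-trend, library totals and the replicate block (0.59, adjusted p = 0.0450). It was 0.34 without DMSO replicate 1, the lowest library (adjusted p = 0.0258), and 0.81 without DMSO replicate 3.

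Ribosome density, the footprint change beyond the input change, was tested as the interaction of assay and treatment over the 12 libraries. None of the 36 genes was called with edgeR, against 0.0938% of all genes higher and 0.835% lower, or 10 and 89 of 10663. DESeq2 and limma-trend called 0 of the 36 as well. A term for each dish gave 31 and 128 of all genes and 0 of the 36. At an unadjusted p under 0.05 there were 3 of the 36 genes, POLR2J, BRF2 and POLR1D, beside 8.7% of all genes, a share near the background. Their densities and that of MAF1 are given as values that were not called. The median density change was -0.043 for the 36 genes and 0.070 for all genes, and it was -0.061 for Pol I only, -0.058 for Pol III only and 0.032 for Pol II only. The median standard error of 0.26 limits what could be seen.

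Footprints per input mRNA of POLR2J were 0.825, 0.351 and 0.653 in DMSO and 1.29, 1.51 and 0.875 in trametinib, each trametinib dish above each DMSO dish (log2 1.15 ± 0.38, adjusted p = 0.297). For BRF2 they were 0.830, 1.39 and 1.27 against 0.717, 0.463 and 0.528, below in each dish (-0.93 ± 0.33, adjusted p = 0.359). For POLR1D they were 0.581, 0.537 and 0.709 against 0.423, 0.427 and 0.440, again without overlap (-0.43 ± 0.18, adjusted p = 0.4999). MAF1 had 0.326, 0.465 and 0.505 against 0.614, 0.547 and 0.575 (0.48 ± 0.26, adjusted p = 0.657). None of these 4 passed the correction under any alternative. POLR1H, POLR2F, POLR2G and BRF1 were also lower in density in each trametinib dish than in each DMSO dish. Their changes were -0.21, -0.21, -0.29 and -0.35, and none was called. POLR2I and POLR2A changed by 0.50 and 0.49, more than MAF1, with groups that overlapped. The share of all genes without overlap was not computed for density, input or footprints. Groups that do not overlap, here and above, are therefore a description of the values and not a result beyond the calls. Without both libraries of DMSO dish 1 the density change was 1.37 for POLR2J, -1.21 for BRF2, -0.49 for POLR1D and 0.29 for MAF1.

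**Figure D4:**
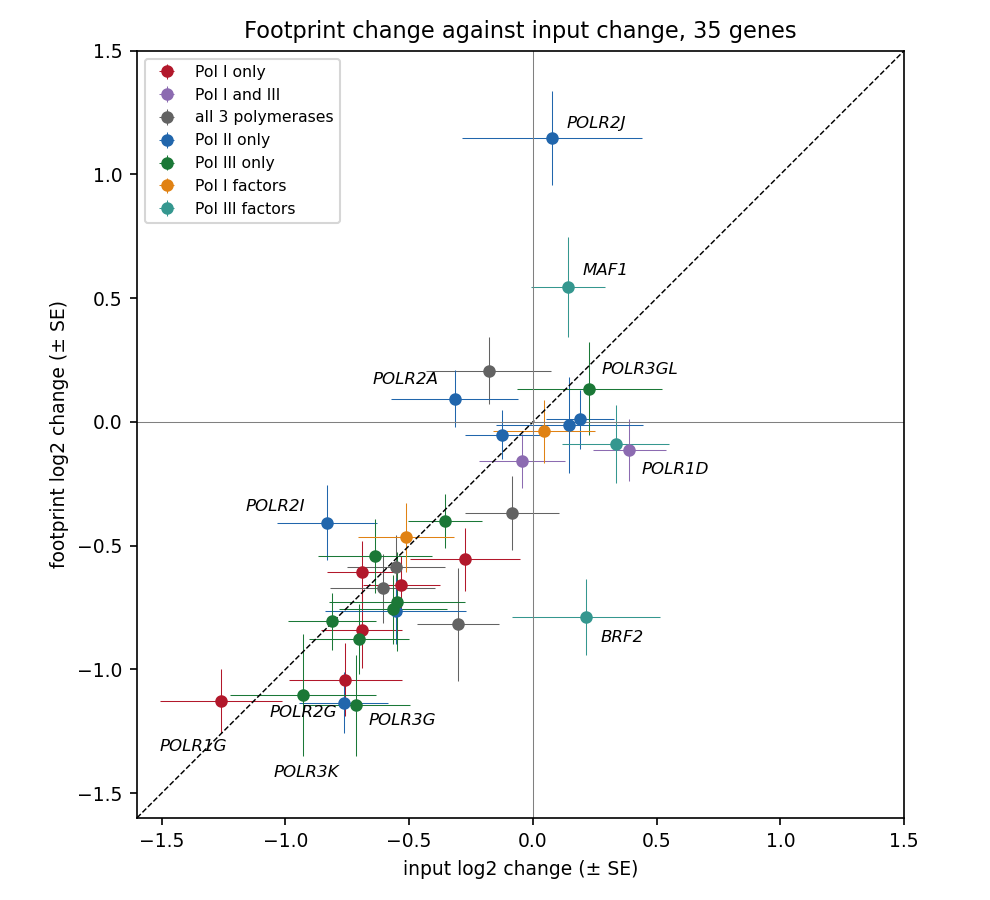
Footprint log2 change against input log2 change of 35 genes, with standard errors as bars, coloured by class, and the dashed line where both are equal. Most genes lie along the line below and left of 0, and none was called for ribosome density. POLR2J, MAF1, POLR2I and POLR2A are among those above the line and BRF2 and POLR1D among those below it.

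In the DMSO dishes the mRNAs for the subunits of the enzymes differed in footprint level. Per kilobase of coding length, the median DMSO footprint level was 350 CPM for the 5 common subunits, 118 for Pol II only, 33.9 for Pol I only and 25.0 for Pol III only. POLR2L and POLR2K, which are small common subunits, were the highest of all, at 1651 ± 251 and 949 ± 70.1 CPM per kilobase (SD, n = 3). They also have the shortest coding sequences, 201 and 174 bases, and the part of length in these levels was not tested. Among the largest subunits POLR2A stood at 116 ± 11.01, POLR1A at 31.1 ± 3.85 and POLR3A at 22.0 ± 1.77. POLR1A and POLR3A were thus separated by more than their spread from POLR2A and from each other. The Pol I only subunits were uneven, from 184 ± 26.3 for POLR1H down to 25.5 ± 0.708 for POLR1G, and the Pol III only subunits ranged from 97.5 ± 26.1 for POLR3G and 89.7 ± 28.9 for POLR3K, which do not differ beyond their spread, to 11.6 ± 1.68 for POLR3B. The Pol II only subunits ranged from 272 ± 16.8 for POLR2G to 10.0 ± 2.47 for POLR2M and 7.74 ± 1.08 for POLR2J, whose values are uncertain. BRF1 and BRF2, at 9.99 ± 1.42 and 10.98 ± 1.22, did not differ beyond their spread. Levels assume that the reference transcript is the one expressed. Without division by length the Pol I only median was 1.03 times that of Pol II only in place of 0.288 times, and the Pol III only median 0.48 times in place of 0.212 times.

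**Figure D5:**
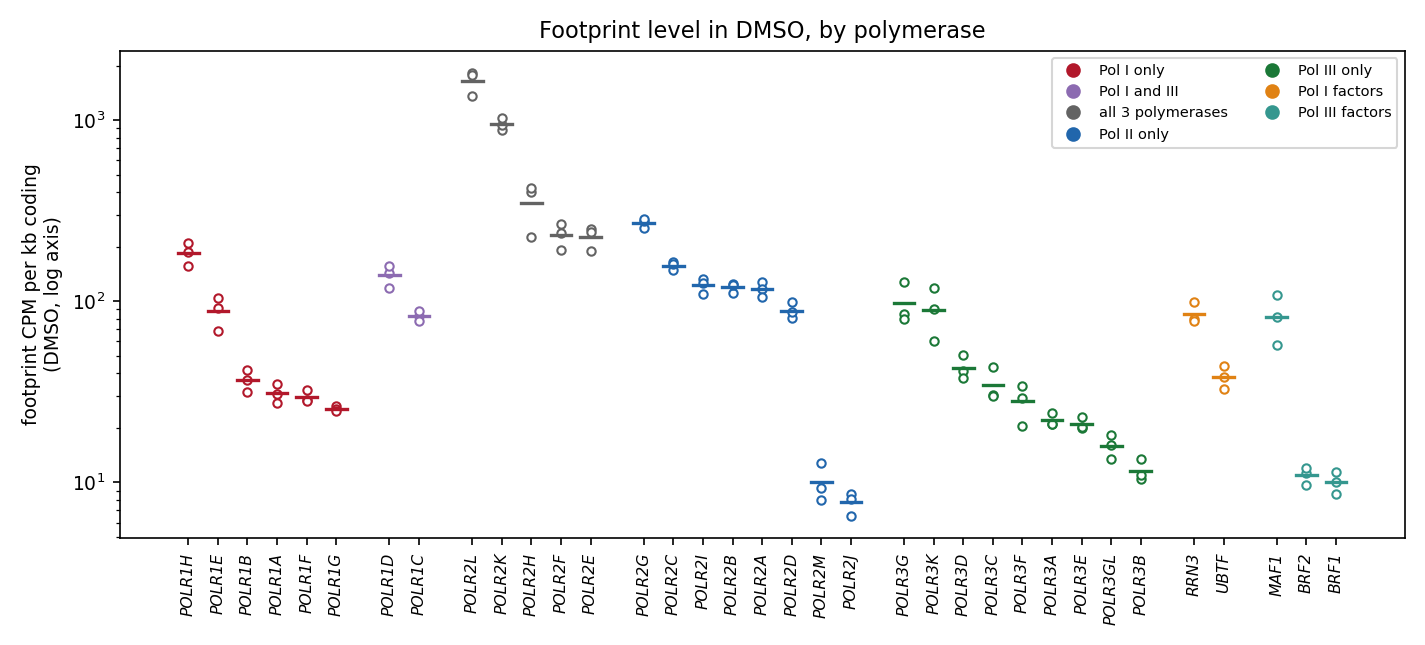
Footprint level in DMSO per kilobase of coding length for 35 genes, on a log axis, with 3 libraries as open points and their mean as a line, ordered by level within each class. The 5 common subunits lie between 227 and 1651 CPM per kilobase, with POLR2L and POLR2K above all other genes, and most Pol I only and Pol III only subunits lie below the core subunits of Pol II.

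Other genes that work with the polymerases were taken from lists. The background over all genes was 16.7% lower and 15.6% higher in input, and 25.6% lower and 23.8% higher in footprints. TBP, lower in both assays, is in the Pol I, Pol III and general Pol II lists and is counted in each. Of 10 further Pol I genes, 6 were lower in input and 7 in footprints and 0 were higher. They included TOP2A (-3.66 and -4.08), a topoisomerase, and TCOF1 (-2.00 and -2.18), which serves Pol I transcription in the nucleolus. TOP2A also marks dividing cells, and cell division was not measured here. Of 17 further Pol III factors, 3 were lower in input, near the background share, and 6 in footprints. Among the lower were GTF3A (-1.10 and -0.89), the factor for the gene of the smallest ribosomal RNA, and SNAPC1 (-0.83 and -0.99). Of 29 general factors of Pol II, 8 were lower and 1 higher in input, and 10 lower and 2 higher in footprints. TAF5, a TFIID subunit, had the largest change (-2.00 and -1.95). In this list GTF2A2 passed for ribosome density, at 1.42 ± 0.31 (adjusted p = 0.0389), with an input change of -1.63 and a footprint change of -0.30. Of 29 pausing and elongation factors of Pol II, 3 were lower and 5 higher in input, and 4 lower and 3 higher in footprints, with CTR9 of the PAF complex higher (1.04 and 0.68) and SSRP1 of the histone chaperone FACT lower (-0.98 and -1.05). Of 15 assembly factors, 4 were lower in input, 8 in footprints and 0 higher, including GPN3, a GTPase for nuclear import of Pol II (-1.36 and -1.30), and PFDN2 (-1.36 and -1.46). CRCP, a stalk subunit of Pol III whose symbol does not begin with POLR3, fell by 0.94 in footprints and had an input change of 0.48 (adjusted p = 0.376). POLRMT, the mitochondrial RNA polymerase, fell by 0.78 in input and 0.80 in footprints.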

How the data were processed

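Ribo-seq input and footprint libraries of HCT116 cells were analysed, 3 per group, with groups and replicate numbers from the labels. After adapter removal the authors discarded reads that Bowtie 1.2.2 aligned to rRNA or tRNA, mapped the rest to the basic Gencode V38 set and deposited whole-number read counts per gene symbol, taken inside open reading frames from reads of a single symbol. Per the file headers, the deposited table also holds a normalized signal (counts over 1 size factor for each library), used here only in a check that it is a constant multiple of the counts in 12 libraries, and the authors' fold changes, adjusted p-values and flags from DESeq2 1.46.0, which were not used. 0 columns of values per library and 0 rows without a gene name were left out.

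Tests were run with edgeR 4.0.16 in R 4.3.3 (TMM, robust quasi-likelihood F test, adjusted p under 0.05). They were also run on simulated counts with the same spread for every gene and few changed genes. That does not check the error rate in these data. Input and footprints were fitted apart without a replicate block, and density as the interaction over 12 libraries. Standard errors were derived from the F statistic, and 95% intervals use its degrees of freedom. Alternatives were median-of-ratios scaling, library totals, other filters, DESeq2 1.42.0, limma-trend (limma 3.58.1, prior count 2), blocks, an adjusted p under 0.1 and leaving out each library. Where a group keeps 2 libraries, the spread is pooled. Because all libraries are scaled to each other, a change common to all mRNAs cannot be seen. Replicates were separate dishes of a cell line.

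Coding lengths came from the MANE Select transcript (Ensembl canonical for POLR2A) of GENCODE v44, since no protein table was used here. The deposited table gives no coordinates. The members, classes and lists were chosen with earlier results of these data known. Named with values in every library were the genes called with an absolute log2 change of at least 0.5, the 5 factors, the largest subunits and the paralog pairs. One gene that is part of the counts, sums and medians is not reported here by name, which leaves 35 in the plots. Other members are given by their changes, and other lists by counts and at most the 2 largest called genes per direction, apart from TBP, which several lists share. The methods state that input and footprints came from the same lysate. Deviations from the group means of input and footprint libraries of equal number correlated across 7669 genes at 0.816, 0.181 and 0.343 in DMSO and 0.141, 0.080 and -0.122 in trametinib, so a term for each dish was an alternative. Between treatments, libraries of equal number correlated at 0.068, 0.048 and 0.334 in input and at 0.117, 0.133 and 0.294 in footprints. Libraries of unequal number were not correlated, so these values do not show that the number pairs the treatments. The labels do not say what it marks, and it was used in an alternative fit only.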

Additional observations from a re-analysis of the deposited data

How the results depend on the processing

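Of 37 called changes, 14 in input and 23 in footprints, none changed sign under any alternative, and the alternatives ended the call of 8 members in input and of 6 in footprints, as given in the report. Leaving out 1 library gave 7 to 14 lower and 0 to 1 higher members in input, 16 to 23 lower and 1 to 2 higher in footprints. The higher members were also 1 in input with the replicate block by number and at an adjusted p under 0.1, and in footprints 3 with library totals and 2 with DESeq2, limma-trend, the replicate block by number and an adjusted p under 0.1, the added gene being MAF1, with POLR2L for library totals. The lower members were 16 and 23 with that block. In footprints the block added the calls of MAF1 and POLR2F and changed no other member's call. In input it added POLR1D, POLR3B and RRN3. In both assays the treatments share only a replicate number, and no pairing was shown. Over all genes, leaving out 1 library gave 1090 to 1778 higher in input and 1 to 16 higher in density, where 10 became 35 with library totals or DESeq2, 30 at an adjusted p under 0.1, 31 with the replicate block by dish and 24 without DMSO dish 1, an alternative added after seeing the data. DESeq2 gave 149 lower in density in place of 89.

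Class medians without 1 library lay between -0.68 and -0.51 for Pol III only in input, -0.82 and -0.71 for Pol I only and -0.089 and -0.003 for Pol II only in footprints, and -0.19 and 0.049 for Pol III only in density. Library totals gave footprint medians of -0.57 (Pol I only), 0.043 (Pol I and III), 0.15 (Pol II only) and -0.57 (Pol III only), and a density median of 0.042 for Pol I only. Without length, baseline ratios to Pol II only were 1.03 for Pol I only and 0.48 for Pol III only.

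Signs changed for members that were not called. Without 1 library, input changes ran from -0.11 to 0.056 (POLR1C), -0.099 to 0.36 (POLR2J), -0.19 to 0.19 (UBTF), -0.061 to 0.40 (POLR2M), -0.19 to 0.073 (POLR2F), -0.38 to 0.22 (POLR2L) and -0.011 to 0.51 (BRF2). Footprint changes ran from -0.15 to 0.22 (POLR2M), -0.078 to 0.073 (POLR2B), -0.14 to 0.090 (UBTF), -0.20 to 0.036 (BRF1) and -0.037 to 0.24 (POLR3GL). With library totals, footprint changes were 0.021 (POLR1C), 0.066 (POLR1D), 0.13 (POLR2C), 0.17 (POLR2M), 0.14 (UBTF) and 0.089 (BRF1). POLR2M was 0.015 with limma-trend and 0.006 with the replicate block. The cause was not tested, except that library totals shift the median of all genes by 0.18 in footprints and 0.11 in density.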
